A study of Mus musculus with 4 samples.

Results

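Trem2, Tyrobp, Apoe, Lpl, Spp1, Gpnmb, Itgax, Ank, Cd83 and Lgals3 are 10 genes of the disease-associated microglia program. They were chosen by gene name, and all 10 had a row among the 24473 genes with a deposited FPKM value (fragments per kilobase of gene length, scaled to library size). RNA-seq had been run on 4 libraries of BV-2, a mouse microglial line immortalised with an oncogene-carrying retrovirus. There were 2 control libraries, labelled WT and titled sh c1 and sh c2, and 2 libraries labelled SIX2 knockdown, titled sh s1 and sh s2. SIX2 is a homeobox transcription factor. Cells of both groups had received lipopolysaccharide (LPS, 100 ng/mL, 24 h), a bacterial product sensed by TLR4, so no library shows the cells without LPS. The sh prefix stands in the titles of both groups, so WT may not mean unmodified cells, and the labels do not say whether the knockdown cells were a clone or a pool.

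Disease-associated microglia are the state that microglia take up around amyloid plaques, dying neurons and damaged myelin. TREM2 is a surface receptor for lipids and lipoproteins that signals through the adaptor TYROBP (DAP12), and full entry into the state is known to need TREM2. Genes of the state encode lipid-handling proteins such as apolipoprotein E and lipoprotein lipase, secreted and lysosome-linked proteins such as osteopontin (Spp1), galectin-3 (Lgals3) and GPNMB, and surface proteins such as the integrin CD11c (Itgax). LPS drives a different, inflammatory activation and is known to lower Trem2.

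Between knockdown and control, 0 of the 10 genes passed the test, as against 0.953% of all genes tested. Trem2, Lpl, Ank and Cd83 were higher and Apoe lower in both knockdown libraries than in both controls, and such separate groups, in 5 of the 10, were as common among all genes (47.6%). Trem2 was 1.39-fold, Ank 1.51-fold, Cd83 1.51-fold and Lpl 1.24-fold the control level, whereas the adaptor gene Tyrobp differed by a factor of 0.988. Apoe was 0.783-fold the control level. Spp1, Gpnmb, Lgals3 and Itgax had overlapping groups. The test was edgeR's quasi-likelihood test with Benjamini-Hochberg adjustment over all genes, with an adjusted p under 0.05 as the threshold.

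Of 15733 genes tested, 150 passed (0.953%), 64 higher (0.407%) and 86 lower (0.547%) in knockdown libraries, against 0 of the 10 members. At an unadjusted p under 0.05, 4 members passed, all higher. Of all genes 7.52% were higher and 6.7% lower at that level. By DESeq2, 3 members passed at an adjusted p under 0.05, as did 5.12% of all genes. Fitted differences were above 0 for 8 of the 10 members and for 48.9% of all genes. The median log2 fold change (knockdown minus control) was 0.11 for the members and -0.01 for all genes. The libraries held 60956299 to 75672836 estimated counts, of which the members took 0.713% to 0.777%. Six2 had 0 counts in all 4 libraries. At an assumed 4 counts per fragment, that allows up to 12 counts per library (0.159 to 0.197 counts-per-million, CPM, counting error only). The knockdown could therefore not be checked on its target. The labels do not say whether the 2 libraries of a group came from different cultures. The spread that the p-values rest on may therefore be technical.

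Markers of the labelled cell type were present. All 10 microglia and macrophage markers were tested, with summed FPKM of 1081 and 1124 in the controls and 994.6 and 974.7 in the knockdown libraries, and 3 of them fell (Csf1r, Aif1 and Adgre1), against 0.547% of all genes. Each of these calls was lost without any 1 library, with an edgeR adjusted p of 0.0878 to 0.227 for Csf1r, 0.0954 to 0.214 for Aif1 and 0.0599 to 0.114 for Adgre1. Markers of other brain cells were at trace level, and those of oligodendrocytes, neurons and, leaving out Aldoc, astrocytes had lower sums in the knockdown libraries, lowest in knockdown 2. The summed FPKM of 7 oligodendrocyte markers was 2.87 and 2.59 in the controls, 1.64 in knockdown 1 and 0.0444 in knockdown 2, and that of 7 neuron markers 1.17, 1.05, 0.494 and 0. Sums of 7 astrocyte markers were 6.42 to 7.92, mostly Aldoc, which many cells express. The 6 astrocyte markers other than Aldoc summed to 0.525 and 0.622 in the controls, 0.244 in knockdown 1 and 0.106 in knockdown 2. Sums of 7 fibroblast markers were at most 0.0848. The sum of 6 endothelial markers was 21.3 to 22.7, nearly all of it Kdr. The part of these traces in the members' values was not tested. Leaving out knockdown 2 does not test it either, since knockdown 1 also had lower oligodendrocyte and neuron sums than the controls. With all libraries and without knockdown 2, the log2 fold change was 0.48 and 0.58 for Trem2, 0.60 and 0.65 for Ank, 0.31 and 0.34 for Lpl, 0.60 and 0.42 for Cd83, and -0.35 and -0.19 for Apoe. Without knockdown 2, 0 members passed, and the unadjusted p of Cd83 was 0.207 in place of 0.0369 (edgeR). In bulk libraries such as these, fewer cells with a transcript and less of it per cell cannot be told apart.

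The promoters of 4 members are shown because they frame the results: Trem2 and Ank, the members with the lowest p-values, and Spp1 and Itgax, the most and the least abundant member. Each is the 250 bases before the RefSeq start site on GRCm38.p6, read along the gene's strand, with motif matches in capitals.
Trem2, chr17:48346151-48346400, plus strand: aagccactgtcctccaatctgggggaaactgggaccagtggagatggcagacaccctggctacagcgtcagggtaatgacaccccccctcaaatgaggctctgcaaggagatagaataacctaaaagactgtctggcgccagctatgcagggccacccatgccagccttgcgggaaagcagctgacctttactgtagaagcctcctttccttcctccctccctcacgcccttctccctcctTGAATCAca
Ank, chr15:27466427-27466676, plus strand: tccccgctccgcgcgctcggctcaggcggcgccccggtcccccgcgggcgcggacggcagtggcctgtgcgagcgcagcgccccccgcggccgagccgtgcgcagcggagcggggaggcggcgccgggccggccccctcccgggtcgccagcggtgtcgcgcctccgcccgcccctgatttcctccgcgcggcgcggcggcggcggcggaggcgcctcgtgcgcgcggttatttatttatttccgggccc
Spp1, chr5:104434861-104435110, plus strand: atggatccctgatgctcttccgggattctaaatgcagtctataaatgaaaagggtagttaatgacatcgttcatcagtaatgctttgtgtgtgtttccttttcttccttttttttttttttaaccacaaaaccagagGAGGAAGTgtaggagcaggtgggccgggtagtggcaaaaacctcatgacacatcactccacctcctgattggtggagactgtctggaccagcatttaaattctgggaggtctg
Itgax, chr7:128129300-128129549, plus strand: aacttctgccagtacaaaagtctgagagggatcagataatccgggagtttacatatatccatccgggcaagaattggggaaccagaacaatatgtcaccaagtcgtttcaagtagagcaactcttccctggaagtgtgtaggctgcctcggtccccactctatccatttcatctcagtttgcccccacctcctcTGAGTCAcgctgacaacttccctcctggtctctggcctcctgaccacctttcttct

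The motifs searched on both strands were GAGGAAGT for the myeloid factor PU.1, TCANGTG for the MITF and TFE factors of lysosomal genes, TGANTCA for AP-1 and TCANGTTTC for SIX2-type proteins. These letters were held by 2.44%, 12.2%, 6.75% and 0.989% of 32851 promoter windows of the same length. The capitals in Trem2 (TGAATCA, beginning 9 bases before the start) and Itgax (TGAGTCA, 56 bases before) match the letters searched for AP-1. Those in Spp1 (GAGGAAGT, 113 bases before) match the PU.1 letters. N stands for any base, so the AP-1 search was loose at its centre, which was A in Trem2 and G in Itgax. The share of 6.75% was counted with the same loose letters. No 2 matches overlapped. The Ank window held none of the 4 motifs and was 81.2% G and C, against 56.0% for Trem2, 50.0% for Itgax and 43.6% for Spp1. RefSeq's table had entries for 7 of the 10 members, and no member window held the SIX2-type letters. A match describes letters and is not a site shown to be bound.

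The members ranged from among the most abundant transcripts of these cells to barely detected ones, as the plot of member FPKM by library shows. Spp1, which encodes the secreted matrix protein osteopontin, was the most abundant. Its deposited FPKM was 1842 and 2017 in control 1 and 2, and 1848 and 2130 in knockdown 1 and 2. Only 18 of the 24473 genes had a higher mean FPKM, and Spp1 alone took 0.338% to 0.390% of all counts. Tyrobp followed with a mean over the 4 libraries of 415 ± 12.8 FPKM (SD, n = 4), then Gpnmb with 262 ± 13.8 and Apoe with 241 ± 47.8. Lgals3 had 114 ± 14.8 and Lpl 71.0 ± 7.92 FPKM. Trem2 had 12.8 ± 2.41, Ank 9.76 ± 2.20, Cd83 2.07 ± 0.531 and Itgax 0.204 ± 0.0307 FPKM. Over the 4 libraries, neighbours in this order had separate ranges except Gpnmb and Apoe, and Trem2 and Ank.

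**Figure D1:**
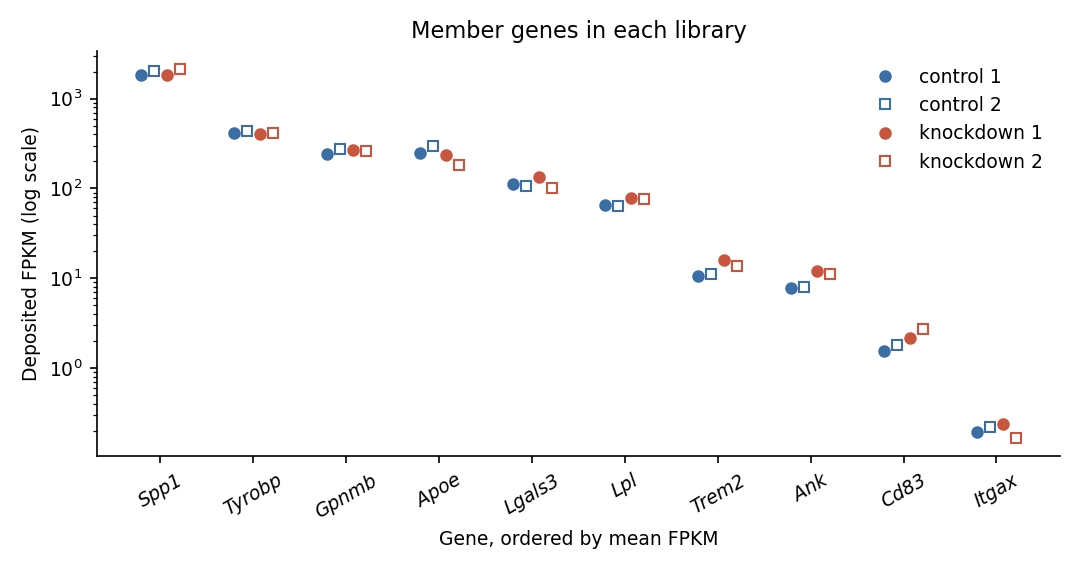
Deposited FPKM of the 10 genes (log axis) in each of the 4 libraries, controls in blue and knockdown in red, circles for replicate 1 and open squares for replicate 2. Levels fall from Spp1, at 1842 to 2130, to Itgax, at 0.167 to 0.236, and the spread between libraries is small beside the distance between most genes.

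The length behind the deposited FPKM matters for this order. In control 1, counts divided by FPKM gave a length proportional to the union of all annotated exons, retained introns included, within 1% for 98.4% of 9879 genes with at least 400 counts. For Trem2 that union is 4946 bases, 4.55 times its longest protein-coding transcript of 1088 bases, and for Lpl 10478 bases, 2.55 times the 4115 bases of its transcript. For Tyrobp, Spp1, Ank and Cd83 the factor was 1.03 to 1.12. Levels per kilobase of the longest coding transcript are a scale added after the data were seen. On it, Trem2 had 64.7 ± 12.3 CPM per kb (SD, n = 4) and Ank 11.2 ± 2.53, with separate ranges. All counts of a gene, those in its other exons included, were divided by that length. The value is therefore an upper limit for the coding transcript, loosest for Trem2 with its factor of 4.55. On that scale the mean of Lpl (201 ± 22.6) was above that of Lgals3 (166 ± 21.8), with overlapping ranges, and Tyrobp (516 ± 14.9) and Gpnmb (513 ± 26.2) no longer had separate ranges. The fold changes were not touched by this choice, since counts per FPKM differed between libraries by at most 0.460% for the 9 members other than Itgax.

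**Figure D2:**
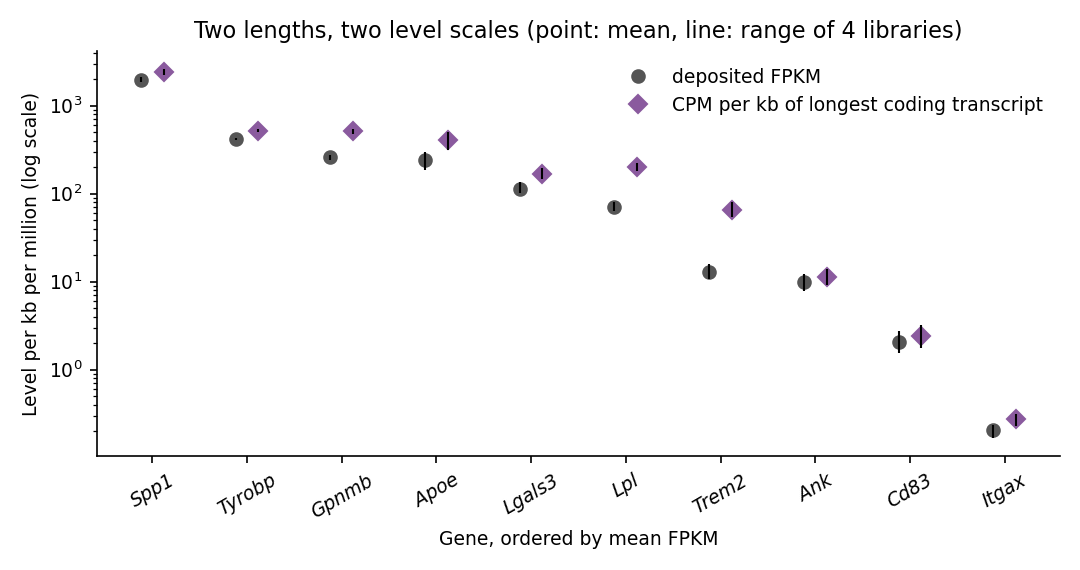
Mean level of each gene over 4 libraries on a log axis, as deposited FPKM (grey circles) and as CPM per kb of the longest protein-coding transcript (purple diamonds); lines span the lowest to the highest library. The distance between the scales is widest for Trem2, whose exon union is 4.55 times its coding transcript.

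The receptor gene Trem2 (ENSMUSG00000023992, chromosome 17, 48346401 to 48354147, plus strand, GRCm38) and its adaptor gene gave unlike values. Trem2 had 58.1 and 59.9 CPM in control 1 and 2, and 87.8 and 76.4 CPM in knockdown 1 and 2 (scaled by TMM, a normalisation for library composition). Both knockdown libraries were above both controls, and the controls lay closer to each other than the knockdown libraries did. The means were 59.0 ± 1.30 and 82.1 ± 8.05 CPM (SD, n = 2 each). The log2 fold change was 0.48 ± 0.10 (SE, 95% interval 0.25 to 0.71), with an unadjusted p of 0.00182 and an adjusted p of 0.0969 by edgeR, which misses the threshold. It passed by DESeq2 (adjusted p = 0.00358) and with no filter on low counts (edgeR adjusted p = 0.0459), and over 15 alternatives the adjusted p ran from 0.00358 to 0.303. No other gene model of GENCODE M21 overlaps Trem2.

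Tyrobp (ENSMUSG00000030579, chromosome 7, 30413760 to 30417582, plus strand), whose protein carries the signalling motif that TREM2 lacks, had 303.5 and 316 CPM in the controls and 303 and 309.8 CPM in the knockdown libraries. Control 2 was the highest and knockdown 1 the lowest, and the groups overlapped. Its log2 fold change was -0.02 ± 0.07 (SE), with a 95% interval of -0.18 to 0.14 (adjusted p = 0.951 by edgeR). The Trem2 to Tyrobp ratio of CPM within a library does not depend on scaling. It was 0.191 and 0.190 in the controls and 0.290 and 0.247 in the knockdown libraries, 1.41-fold the control mean. The ratios did not overlap between groups, and an exact two-sided permutation test of 2 against 2 libraries gives p = 0.333, the smallest it can give.

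**Figure D3:**
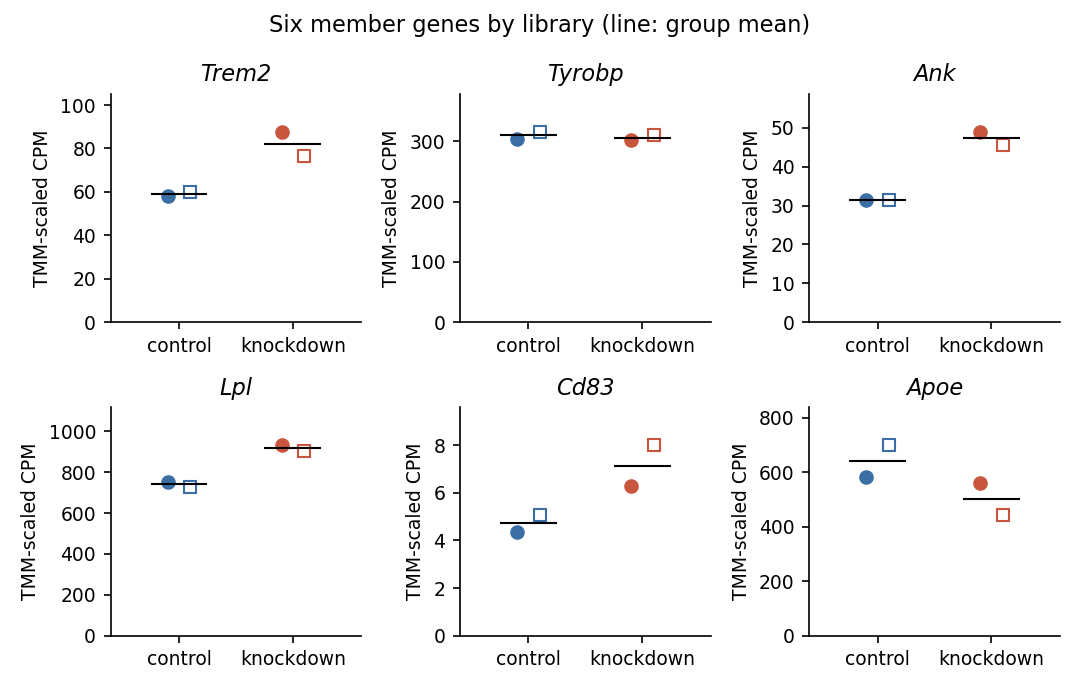
TMM-scaled CPM (axes from 0) of 6 member genes in the 2 control and 2 knockdown libraries, circles for replicate 1, open squares for replicate 2 and lines for group means. Trem2, Ank, Lpl and Cd83 are higher and Apoe lower in both knockdown libraries, and Tyrobp lies at 303 to 316 CPM in all 4.

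Ank (ENSMUSG00000022265, chromosome 15, 27466677 to 27594909, plus strand) encodes a transmembrane protein that exports pyrophosphate and other small anions, and it came closest to the threshold. It had 31.3 CPM in each control, and 49.1 and 45.6 CPM in knockdown 1 and 2. The group means were 31.3 ± 0.00171 and 47.3 ± 2.44 CPM (SD, n = 2 each); the control SD rests on 2 libraries that happened to match. The log2 fold change was 0.60 ± 0.10 (SE, 95% interval 0.36 to 0.83, adjusted p = 0.0562 by edgeR). Ank passed in 3 of 15 alternatives: DESeq2 (adjusted p = 5.6e-05), no filter on low counts (0.0202) and counts divided by 4 (0.0499, both edgeR). Over all 15 the adjusted p ran up to 0.235. Part of Ank lies opposite Otulin, a deubiquitinase gene, though the annotated exons share 0 bases. Whether counting used strand is not stated. Otulin had 116 and 107 CPM in the controls and 100.4 and 102 CPM in the knockdown libraries, the other direction from Ank.

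The lipid genes had fitted differences of opposite sign, and neither passed. Lpl (ENSMUSG00000015568, chromosome 8, 68880491 to 68906934, plus strand) encodes lipoprotein lipase, which releases fatty acids from triglyceride-rich lipoproteins. It had 753 and 728 CPM in the controls and 932 and 904 CPM in the knockdown libraries. The groups were separate and tight, at 740.3 ± 17.9 and 918 ± 20.1 CPM (SD, n = 2 each). The log2 fold change was 0.31 ± 0.07 (SE, 95% interval 0.15 to 0.47, adjusted p = 0.105 by edgeR). By DESeq2 Lpl passed with an adjusted p of 0.000763, and the 15 alternatives ran from that value to 0.359.

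Apoe (ENSMUSG00000002985, chromosome 7, 19696109 to 19699188, minus strand) encodes the main lipid carrier of the brain and a ligand of TREM2. It had 582 and 700.2 CPM in the controls and 562 and 442 CPM in the knockdown libraries. Control 1 and knockdown 1 differed by less than the libraries within either group, so the lower knockdown mean rests mainly on control 2 and knockdown 2. The log2 fold change was -0.35 ± 0.15 (SE, 95% interval -0.74 to 0.04, adjusted p = 0.398 by edgeR), and it ran from -0.54 to -0.19 over the alternatives. Knockdown 2, where Apoe was lowest, also had the lowest sums of oligodendrocyte and neuron markers (0.0444 and 0 FPKM) and of astrocyte markers other than Aldoc (0.106 FPKM). Control 2, where Apoe was highest, had lower oligodendrocyte and neuron sums than control 1 (2.59 against 2.87 and 1.05 against 1.17 FPKM). Its sum of astrocyte markers other than Aldoc was higher (0.622 against 0.525 FPKM). The part of these traces in the Apoe values was not tested. The Lpl to Apoe ratio of CPM was 1.29 and 1.04 in the controls and 1.66 and 2.05 in the knockdown libraries (exact two-sided permutation p = 0.333, the smallest possible).

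Of the surface proteins, Cd83 (ENSMUSG00000015396, chromosome 13, 43784775 to 43803132, plus strand), an activation marker of antigen-presenting cells, had 4.37 and 5.08 CPM in the controls and 6.29 and 8.01 CPM in the knockdown libraries. Its groups were separate but each was wide. The log2 fold change was 0.60 ± 0.23 (SE, 95% interval 0.05 to 1.15), with an unadjusted p of 0.0369 and an adjusted p of 0.311 by edgeR. Itgax (ENSMUSG00000030789, chromosome 7, 128129547 to 128150657, plus strand) had 78 and 72 counts in the controls and 95 and 59 counts in the knockdown libraries. At an assumed 4 counts per fragment these are few fragments. The 95% interval of the Itgax log2 fold change was -1.10 to 1.14, so a 2-fold difference either way was not detectable at this depth. Itgax encodes CD11c, a marker by which such microglia are often sorted, and it was at 0.932 to 1.28 CPM in cells in which 6 other members exceeded 200 CPM.

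Of the secreted and lysosome-linked proteins, Spp1 (ENSMUSG00000029304, chromosome 5, 104435118 to 104441050, plus strand) had 3357 and 3635 CPM in the controls and 3422 and 3963 CPM in the knockdown libraries (log2 fold change 0.08 ± 0.09, SE, adjusted p = 0.774 by edgeR). Spp1 shares 309 exon bases with Gm42793 on its own strand, a model that held 76 to 132 counts. Gpnmb (ENSMUSG00000029816, chromosome 6, 49036546 to 49070929, plus strand), a transmembrane glycoprotein induced by lysosomal stress, had 1754 and 1967 CPM in the controls and 1953 and 1915 CPM in the knockdown libraries. Both knockdown values lay between the controls. Lgals3 (ENSMUSG00000050335, chromosome 14, 47367751 to 47386160, plus strand), whose protein galectin-3 binds TREM2 and damaged lysosomes, had 233 and 216 CPM in the controls and 282 and 212 CPM in the knockdown libraries. Knockdown 1 was the highest and knockdown 2 the lowest, so its group difference lies within the spread. The 95% intervals were -0.14 to 0.30 for Spp1, -0.13 to 0.25 for Gpnmb and -0.23 to 0.50 for Lgals3 on the log2 scale.

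**Figure D4:**
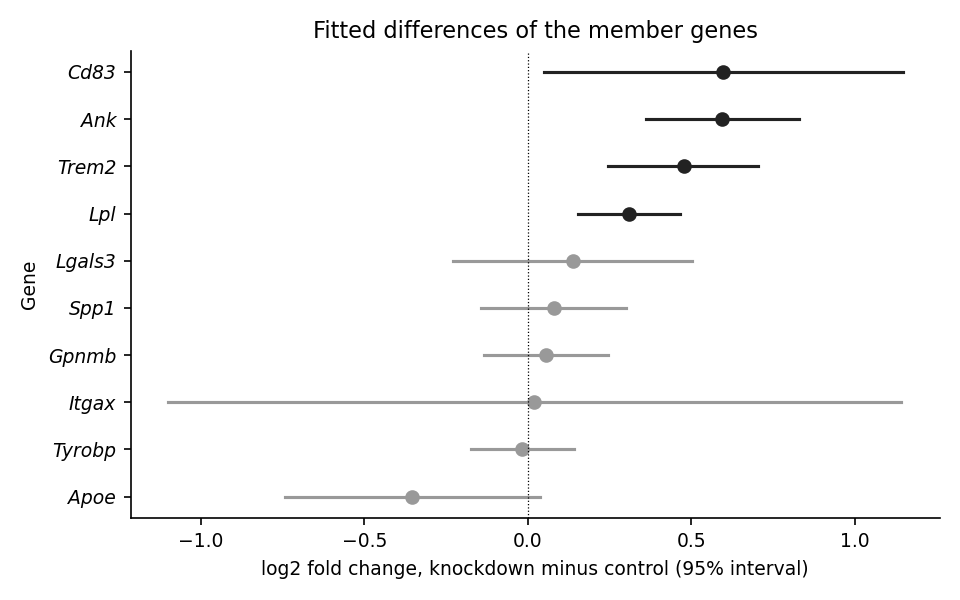
Fitted log2 fold change, knockdown minus control, of the 10 genes with the 95% interval of the fit (2 libraries per group); black marks an unadjusted p under 0.05. The intervals of Cd83, Ank, Trem2 and Lpl lie above 0, that of Itgax is the widest (-1.10 to 1.14), and no gene passed an adjusted p of 0.05.

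Other genes of the disease-associated program passed the test in both directions. Of 30 other genes of that state 25 were tested: 2 rose, 3 fell and 20 did not pass (20% called, against 0.953% of all genes), with a median log2 fold change of -0.03. This list and those below were chosen with earlier results of these data known. Their shares of called genes are therefore descriptions and do not test for enrichment. Ccl6, a CC chemokine, rose from 9.44 and 10.1 CPM to 29.9 and 27.6 CPM, and Cst7, the protease inhibitor cystatin F, from 9.81 and 8.72 to 22.9 and 26.2 CPM (adjusted p = 0.0129 and 0.0152 by edgeR). The trophic factor gene Igf1 fell from 93.7 and 95.4 CPM to 55.0 and 52.4 CPM (adjusted p = 0.0152 by edgeR). The other genes that fell, named after their values were seen, were the lysozyme gene Lyz2 (332 ± 14.8 to 166 ± 23.3 CPM) and the fatty acid binding gene Fabp5 (647 ± 10.4 to 481 ± 18.7 CPM, SD, n = 2 each). Left-out libraries changed some of these calls. Ccl6 passed without any 1 library (adjusted p 0.037 to 0.0422 by edgeR). Cst7 was lost without control 2 (0.0783) or knockdown 2 (0.0948), and Lyz2 without control 1 (0.0598) or control 2 (0.0993). Igf1 was lost without control 1 (0.0598), control 2 (0.0783) or knockdown 2 (0.0829). Fabp5 was lost without any 1 library (0.151 to 0.219). Of 20 homeostatic microglia genes, which the disease-associated state is known to switch off, 15 were tested. In that list 0 rose and 1 fell (6.67% called, against 0.953% of all genes). It was Csf1r, the receptor microglia need to survive, at 309.9 and 311.5 CPM in the controls and 231 and 215 CPM in the knockdown libraries (adjusted p = 0.0426 by edgeR). That call was lost without any 1 library (adjusted p 0.0878 to 0.227). The list's median was -0.28, also with the gene that was at 0 in a group set to its bound. At an unadjusted p under 0.05 by edgeR, 1 was higher and 5 lower, against 7.52% and 6.7% of all genes. The untested genes P2ry12, Sall1, Siglech, Gpr34 and Fcrls had at most 24 counts in any library.

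Signalling and processing genes of TREM2 had no call by edgeR. Of 29 genes acting downstream of TREM2 and TYROBP, all were tested and 0 passed by edgeR. At an unadjusted p under 0.05, 5 were higher and 5 lower, against 7.52% and 6.7% of all genes, and the median was -0.04. DESeq2 called 2 higher and 1 lower, against 5.12% of all genes in both directions. The same shares apply to the lists below. The highest by FPKM were Ptpn6, a phosphatase that restrains such signals (402 ± 10.3 and 361 ± 15.9 CPM), and Rac2, a GTPase of the actin cytoskeleton (439.7 ± 15.2 and 379.7 ± 24.0 CPM). Of 5 other genes of the TREM cluster on chromosome 17, 3 were tested and 0 passed by edgeR or DESeq2, with 0 at an unadjusted p under 0.05. Trem3 had 2.69 and 1.54 CPM in the controls and 3.13 and 2.72 CPM in the knockdown libraries, and Treml2 4.86 ± 1.45 and 4.90 ± 0.498 CPM. Of 8 genes that shed and cleave TREM2, 0 passed by edgeR. At an unadjusted p under 0.05, 1 was higher and 1 lower, and DESeq2 called 1 lower. The sheddase gene Adam17 had 206 ± 25.6 and 180.4 ± 16.7 CPM (control and knockdown, SD, n = 2 each).

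Partners of the lipid and matrix members had no call by edgeR either. Of 20 genes that handle apolipoprotein E lipids, 0 passed by edgeR. At an unadjusted p under 0.05, 2 were higher and 5 lower, and DESeq2 called 1 higher and 2 lower. Of all genes, 7.52% were higher and 6.7% lower at that p, and DESeq2 called 5.12%. Their median log2 fold change was -0.19, the same with the 1 gene at 0 in a group set to its bound. Npc2, a lysosomal cholesterol carrier, had 464 ± 16.0 and 405 ± 17.2 CPM and Clu, the lipoprotein clusterin, 158 ± 13.4 and 139 ± 2.74 CPM. Of 6 partners of lipoprotein lipase 3 were tested and 0 passed, with 1 lower at an unadjusted p under 0.05. Lmf1, which folds the lipase, had 15.9 ± 2.19 and 15.5 ± 1.56 CPM, and Sel1l, which also acts in its maturation, 145 ± 29.7 and 102 ± 3.66 CPM (DESeq2 adjusted p = 0.0247, the only call it made in this list). Of 12 osteopontin receptors and galectins 11 were tested and 0 passed by edgeR. At an unadjusted p under 0.05, 3 were higher and 2 lower, and DESeq2 called 1 higher and 2 lower. Lgals1, galectin-1, had 646 ± 1.61 and 749 ± 11.5 CPM and the integrin gene Itgb1 262 ± 7.32 and 298 ± 26.5 CPM. Of the 4 beta-2 integrin genes that include the partner of CD11c, 3 were tested and 0 passed, with 1 lower at an unadjusted p under 0.05. Itgb2, that partner, had 58.4 ± 0.866 and 43.1 ± 3.55 CPM (called by DESeq2 only among the tools run, adjusted p = 0.00709) and Itgam, which encodes CD11b, 92.0 ± 4.05 and 87.1 ± 9.31 CPM.

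Among 15 transcription factors tied to these genes, 14 were tested, 0 rose and 2 fell (14.3% called, against 0.953% of all genes). This list too was chosen with earlier results of these data known, so the share does not test for enrichment. Their median was -0.09, against -0.01 for all genes. At an unadjusted p under 0.05 by edgeR, 0 were higher and 3 lower, against 7.52% and 6.7% of all genes. Maf, a macrophage factor of the large MAF family, had 65.9 and 75.6 CPM in the controls and 40.1 and 43.4 CPM in the knockdown libraries (adjusted p = 0.0304 by edgeR). Its groups did not overlap. With any 1 library left out 0 of the 14 passed, and the adjusted p of Maf was 0.0657 to 0.157.

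**Figure D5:**
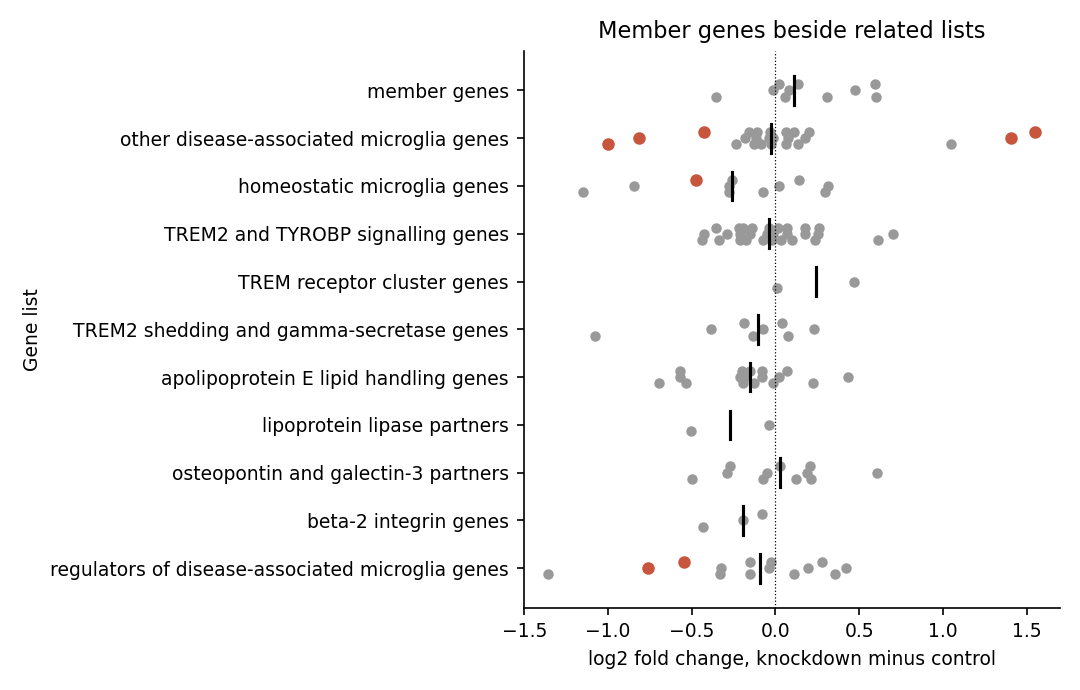
Fitted log2 fold change, knockdown minus control, of each tested gene with a mean of at least 1 CPM in the 10 member genes and the 10 related lists; red points passed an adjusted p of 0.05 and black bars are medians of the plotted genes. The called genes are 5 of the other disease-associated genes, 1 homeostatic gene and 2 transcription factors, and none of the 10 members.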

How the data were processed

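Poly(A) RNA of 2 control and 2 SIX2 knockdown libraries of LPS-treated BV-2 cells was sequenced paired-end with a dUTP kit, per the labels' protocols. The authors deposited estimated counts per gene, whole and not normalised, and FPKM, scaled by the authors to length and library total. Bowtie 0.12.2 and build mm8 are named per the submitters' processing notes; no counting program is named there or in the labels. Coordinates of 86.4% of 24422 genes equalled GENCODE M21 on GRCm38, so that build is given. Between 42.1% and 47.2% of counts from 1 to 20 were multiples of 4, so 1 fragment was taken as 4 counts and the floor as 12 counts (3 fragments). Most counts in that range were not multiples of 4, so this unit is an assumption. Estimated counts were used as deposited, without rounding, except in the alternative with counts divided by 4. Another 12 columns match no labelled sample and were not used.

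All genes were fitted in R 4.3.3 with edgeR 4.0.16 (filterByExpr, TMM, robust quasi-likelihood F test, two-sided, Benjamini-Hochberg adjustment); intervals are at 95% from the fit's SE and degrees of freedom. The fit was tested on simulated data. Alternatives used limma 3.58.1, DESeq2 1.42.0, other scalings and filters, log2(FPKM + 1) and log2(FPKM + 0.1), counts divided by 4, a replicate block and leaving out each library. Promoter sequences are RefSeq's, on GRCm38.p6.

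The members and lists were chosen with earlier results of these data known. Named genes are all members and, from each list, up to 3 called genes of lowest adjusted p, or the 2 of highest FPKM in a list without a called gene. Some genes that this rule names are not reported here.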

Additional observations from a re-analysis of the deposited data

How the results depend on the processing

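The count of 150 called genes depended on the method. It was 806 by DESeq2, 297 with no filter on low counts, 65 by limma-voom, 7 without the robust option, and 3 and 4 by limma on log2(FPKM + 1) and log2(FPKM + 0.1). It was 41 to 112 without 1 library. The labels do not say whether libraries of equal replicate number were paired. Deviations of same-numbered libraries from their group means had a correlation of -0.07 over 9982 genes. A value over all genes cannot settle pairing, since single genes may still follow the replicate number. With the replicate block 0 genes passed by edgeR, 13.1% at an unadjusted p under 0.05. Of the members, 3 passed by DESeq2 (Trem2, Lpl, Ank), 2 with no filter (Trem2, Ank) and 1 with counts divided by 4 (Ank), and 0 in the other 12 alternatives, the fits without 1 library (0 to 0) and the replicate block among them. Of all genes, 5.12% passed by DESeq2, 1.3% with no filter and 1.28% with counts divided by 4. The cause of these differences between fits was not tested.

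Trem2, Lpl, Ank, Cd83 and Apoe kept their direction in all 15 alternatives. Their groups did not overlap in TMM-scaled CPM, so leaving out 1 library at that scaling could not reverse a direction. Itgax was -0.013 with library totals alone, and -0.007 and -0.033 on the FPKM scales. Without 1 library, Itgax ran from -0.232 to 0.234, Lgals3 from -0.084 to 0.33, Spp1 from -0.027 to 0.178, Gpnmb from -0.026 to 0.144 and Tyrobp from -0.047 to 0.015. Of the other named genes, Treml2 ran from -0.262 to 0.354, Lmf1 from -0.167 to 0.113 and Itgam from -0.196 to 0.029. Treml2 was also -0.021 with library totals alone, -0.005 with at least 1 CPM in 2 libraries, and -0.003 both on log2(FPKM + 1) and with counts divided by 4. In the level order 2 members changed rank with controls alone (Apoe and Gpnmb), and 2 per kb of coding transcript (Lpl and Lgals3). Itgax, with 59 to 95 counts per library, had a 95% interval of -1.10 to 1.14.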
